A study of Mus musculus with 10 samples.

Results

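The miR-148 and miR-152 seed family was followed in small RNA libraries of mouse liver. Its members were chosen by name as the rows miR-148a, miR-148b and miR-152, and all 3 were found among the 285 mature miRNAs of the table. Libraries came from livers of mice at 14 weeks of age, 5 from Tsc1 mutants with a liver knockout of Tsc1 and 5 from littermate controls. Tsc1 encodes a subunit of the TSC complex, which restrains mTORC1 signalling. The promoter that drove the deletion and the sex of the animals are not given in the labels. The Tsc1 message was not analysed here, and the labels were therefore not tested by the level of the deleted gene. The labels do not say that each library came from a different animal. The p-values therefore rest on the variation between these libraries, which need not be that between animals.

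A miRNA guides an Argonaute protein to messenger RNAs that pair with its seed, bases 2 to 8 from its 5′ end, and these messages are then translated less or degraded. Members with the same seed can share targets. The miR-148 and miR-152 family is known for targeting the message of DNMT1, the enzyme that copies DNA methylation onto new strands. In liver, miR-148a is an abundant miRNA of hepatocytes and is known to lower the LDL receptor and the cholesterol exporter ABCA1.

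The mature sequences are shown because the seed defines the family and because the members differ outside it. They are the 3p arms in RefSeq (GRCm38.p6), with the seed in capitals.
miR-148a: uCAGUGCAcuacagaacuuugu
miR-148b: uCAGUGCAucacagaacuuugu
miR-152: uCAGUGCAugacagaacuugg
The table names the members without an arm. A plain name was commonly given to the more abundant arm, which is the 3p arm for these hairpins, but which arm was counted is not given in the sources used here. Counted from the 5′ end, with miR-148a as the reference, miR-148b carried C9U and U10C, and miR-152 carried C9U, U10G and U20G. Thus 20 of 22 positions were the same between miR-148a and miR-148b, and 18 of 21 between miR-148a and miR-152. Between miR-148b and miR-152, 19 of 21 positions were the same. How reads with mismatches were assigned among the members is not given in the sources used here, so part of a minor member's value may be misassigned.

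No other mature mouse miRNA of the 1679 in the RefSeq table carried the seed CAGUGCA in bases 2 to 8. The letters AGUGCA also lie in other seeds, among them those of miR-130a and miR-301a, which are shown to make the shift by a single base visible.
miR-130a: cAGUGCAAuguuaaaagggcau
miR-301a: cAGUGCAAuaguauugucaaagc
These relatives are not members. Their levels were low beside the family, at 386 ± 190 normalised reads in control and 357 ± 57.8 in mutant livers for miR-130a (mean ± SD over 5 libraries). For miR-301a the control level was 23.3 ± 9.39 normalised reads, with a log2 difference, mutant minus control, of -0.15 ± 0.31 (SE).

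The 3 hairpins lie on different chromosomes. Mir148a is on chromosome 6 from 51269812 to 51269910 on the minus strand, outside annotated genes other than its own (GRCm38). Its nearest protein-coding gene is Nfe2l3, 162.8 kb away. Mir148b, on chromosome 15 from 103285125 to 103285221 on the plus strand, lies in an intron of Copz1 on the same strand. Mir152, on chromosome 11 from 96850393 to 96850465 on the plus strand, lies in an intron of Copz2 on the same strand. Copz1 and Copz2 encode related zeta subunits of the coatomer, the coat of vesicles that move between Golgi and endoplasmic reticulum.

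The libraries held 6228497 to 12129069 reads over the listed miRNAs. A normalised read is a read scaled by 1 factor per library. The hepatocyte miRNA miR-122 was the most abundant in the table. Of the libraries, 3 stood apart. The deviations of control replicate 1 and Tsc1 mutant replicate 1 from their group means had a correlation of 0.81 over the 285 miRNAs. Control replicate 2 had the highest sum of 5 biliary epithelial miRNAs, at 35789 normalised reads against 4996 to 6088 in the other controls and 3126 to 7014 in mutants. Its sum of 3 striated muscle miRNAs was 5638 against at most 559 in the other controls. The main results on the members are also given without these libraries, and the other descriptions use all 10.

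Both genotypes expressed all 3 members. In mutants miR-152 was 1.14-fold its control level, the largest of the 3 differences, and none of the 3 passed the test of genotype. The major member was miR-148a. Its level was 606441, 482700, 615046, 511516 and 596906 normalised reads in control replicates 1 to 5. In Tsc1 mutant replicates 1 to 5 it was 685786, 531243, 592326, 545053 and 565917. The highest value was in mutant replicate 1 and the lowest in control replicate 2, and the other mutants lay within the range of the controls. The means were 562522 ± 60916 in controls and 584065 ± 61353 in mutants (mean ± SD over 5 libraries).

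Both minor members were far less abundant. For miR-148b the controls held 18251, 20557, 22694, 22291 and 21827 normalised reads, and the mutants 18450, 21162, 20414, 21278 and 21645. The groups overlapped fully, and the lowest library in each genotype was replicate 1. The means were 21124 ± 1796 in controls and 20590 ± 1277 in mutants (mean ± SD over 5 libraries).

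For miR-152 the controls held 23575, 21952, 21216, 19365 and 19672 normalised reads, and the mutants 24459, 23143, 24903, 23339 and 24570. Of the 5 mutants, 3 lay above every control, and the other 2 were exceeded only by control replicate 1. Complete separation, which 0 of the members showed, was seen above controls in 10.2% and below controls in 2.46% of all miRNAs. The means were 21156 ± 1725 in controls and 24083 ± 789 in mutants (mean ± SD over 5 libraries).

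**Figure D1:**
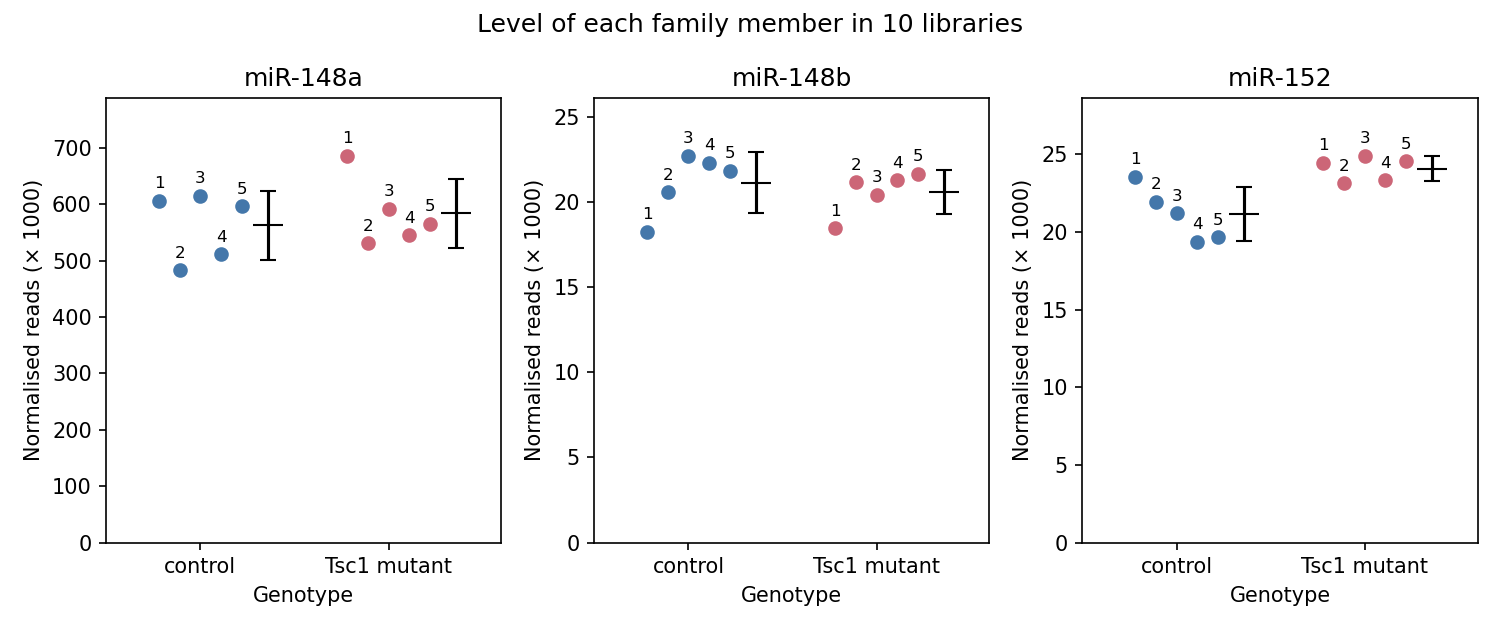
Normalised reads, divided by 1000 on the axis, of miR-148a, miR-148b and miR-152 in each liver library, by genotype. Points carry the replicate number, and black bars give the mean and SD of 5 libraries. The groups overlap for all 3 members. For miR-152 all 5 mutants exceed controls 2 to 5, but control replicate 1 exceeds mutant replicates 2 and 4. Without control replicate 1, 13.7% of all miRNAs had every mutant above every control.

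The test of genotype ran over the whole table, at a threshold of 0.05 for the adjusted p. In it 13.0% of miRNAs passed in either direction, 10.9% as higher (31) and 2.11% as lower (6), so a count of 0 among 3 members is not a result about the family. At an unadjusted limma p below 0.05, 22.5% of all miRNAs and 0 of the members were called. For miR-148a the log2 difference, mutant minus control, was 0.055 ± 0.11 (SE; limma adjusted p = 0.877). Its 95% interval ran from a ratio of 0.874 to one of 1.24. For miR-148b the log2 difference was -0.035 ± 0.10 (SE; limma adjusted p = 0.943). Its interval ran from a ratio of 0.833 to one of 1.14. Those intervals bound the change that these 10 libraries leave possible, and do not show that the levels were equal.

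The difference in miR-152 was larger than that of the other members, at 0.19 ± 0.097 on the log2 scale (SE), or 1.14-fold. Its 95% interval ran from a ratio of 0.983 to one of 1.32, with a limma p of 0.0773 and an adjusted p of 0.298. The model draws the spread of each miRNA towards that of miRNAs of similar level. On its own values alone, a 2-sided exact permutation test over all 252 splits gave p = 0.0238 for miR-152, and an adjusted p of 0.128 over the 285 miRNAs. In this permutation test 67 of the 285 miRNAs had an unadjusted p below 0.05, and no adjusted p could be below 0.0628. The same exact permutation test gave p = 0.587 for miR-148a and p = 0.579 for miR-148b. In size, the difference of miR-152 stood below the median absolute log2 difference of all miRNAs, 0.27, and its limma p ranked 74 of 285.

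Which libraries were left out changed the size of the miR-152 difference. Control replicates 1 and 2 held the highest miR-152 values among controls, so leaving them out raises the difference of miR-152. Without Tsc1 mutant replicate 1 alone its log2 difference was 0.18 (limma adjusted p = 0.380). Without control replicate 1 alone it was 0.23 (limma adjusted p = 0.0913), and every mutant then lay above every remaining control. That order held for 13.7% of all miRNAs in those libraries. Without both replicates 1 the difference was 0.22 (limma adjusted p = 0.0857), and with control replicate 2 left out as well it was 0.26 (limma adjusted p = 0.0699). The corresponding values were 0.025 and -0.037 for miR-148a, and -0.048 and -0.076 for miR-148b, all with limma adjusted p-values of at least 0.557. Over all settings tried, the limma adjusted p of miR-152 ran from 0.0520 with array weights to 0.498 without control replicate 5.

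**Figure D2:**
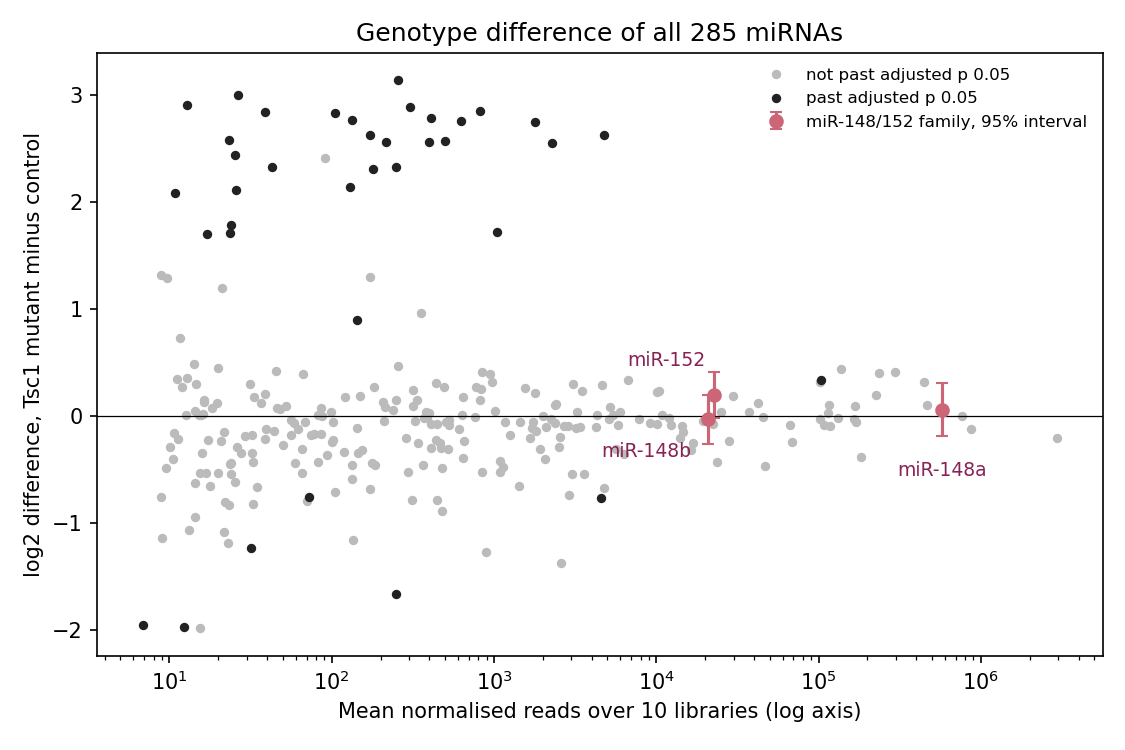
Each point is 1 of the 285 miRNAs, with its mean normalised reads on a log axis against its log2 difference, mutant minus control. Red points with 95% intervals are the family members, all of whose intervals include 0, and black points are the miRNAs past a limma adjusted p of 0.05.

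As a share of reads, the family took up 6.38 ± 0.837% of controls and 6.83 ± 0.713% of mutants (mean ± SD over 5 libraries). Its lowest share was 5.28% in control replicate 4 (95% exact binomial interval 5.26 to 5.30%), and its highest was 7.97% in mutant replicate 1 (7.95 to 7.98%). Control replicate 1, at 7.60%, was the next highest. These intervals cover counting error only, on reads inferred from the steps of the normalised values, and are narrower than the spread between libraries. Summed over members, the log2 difference of normalised reads was 0.057 ± 0.090 (SE). It was 0.029 without both replicates 1, and its sign turned to -0.028 with control replicate 2 left out as well. In those 7 libraries the family share was 6.06 ± 0.685% in the 3 controls and 6.54 ± 0.368% in the 4 mutants (mean ± SD).

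On the scale of shares, miR-152 overlapped more between genotypes than on the deposited scale. Its share was 0.276%, 0.255%, 0.205%, 0.185% and 0.202% in controls 1 to 5. In mutants 1 to 5 it was 0.267%, 0.250%, 0.275%, 0.251% and 0.263%. Control 1 lay above every mutant, control 2 lay within the mutant range, and controls 3, 4 and 5 lay below every mutant. The log2 difference with scaling to the library total was 0.24 (limma adjusted p = 0.379).

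Within the family, miR-148a supplied 93.0 ± 0.730% in controls and 92.8 ± 0.746% in mutants (mean ± SD over 5 libraries). The 3p arms are 21 or 22 bases long, so length hardly enters such a comparison if these arms were counted. Of the minor members, miR-152 took 3.52 ± 0.428% in controls and 3.85 ± 0.280% in mutants. The part of miR-148b was 3.52 ± 0.482% and 3.31 ± 0.472% (mean ± SD over 5 libraries).

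The order of the minor members was not fixed. The ratio of miR-152 to miR-148b was 1.29, 1.07, 0.935, 0.869 and 0.901 in controls 1 to 5. In mutants 1 to 5 it was 1.33, 1.09, 1.22, 1.10 and 1.14. Thus miR-152 exceeded miR-148b in all 5 mutants and in 2 of 5 controls, the 2 being replicates 1 and 2. A ratio within a library does not depend on how libraries were scaled.

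The ratio of miR-148a to miR-148b was highest in replicate 1 of each genotype. It was 33.2 in control replicate 1 and 22.9 to 27.3 in the other controls. In mutants it was 37.2 in replicate 1 and 25.1 to 29.0 in the others. In these libraries miR-148a lay above its group mean, by 0.12 in the control and 0.24 in the mutant on the log2 scale. There miR-148b lay below its mean, with deviations of -0.21 and -0.16. miR-148a and miR-148b thus deviated in opposite directions in the same libraries.

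The ratio of miR-148a to miR-152 was 25.7, 22.0, 29.0, 26.4 and 30.3 in controls 1 to 5. In mutants it was 28.0 in replicate 1 and 23.0 to 23.8 in the other 4. The mutants without replicate 1 lay in a narrow band inside the range of the controls.

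**Figure D3:**
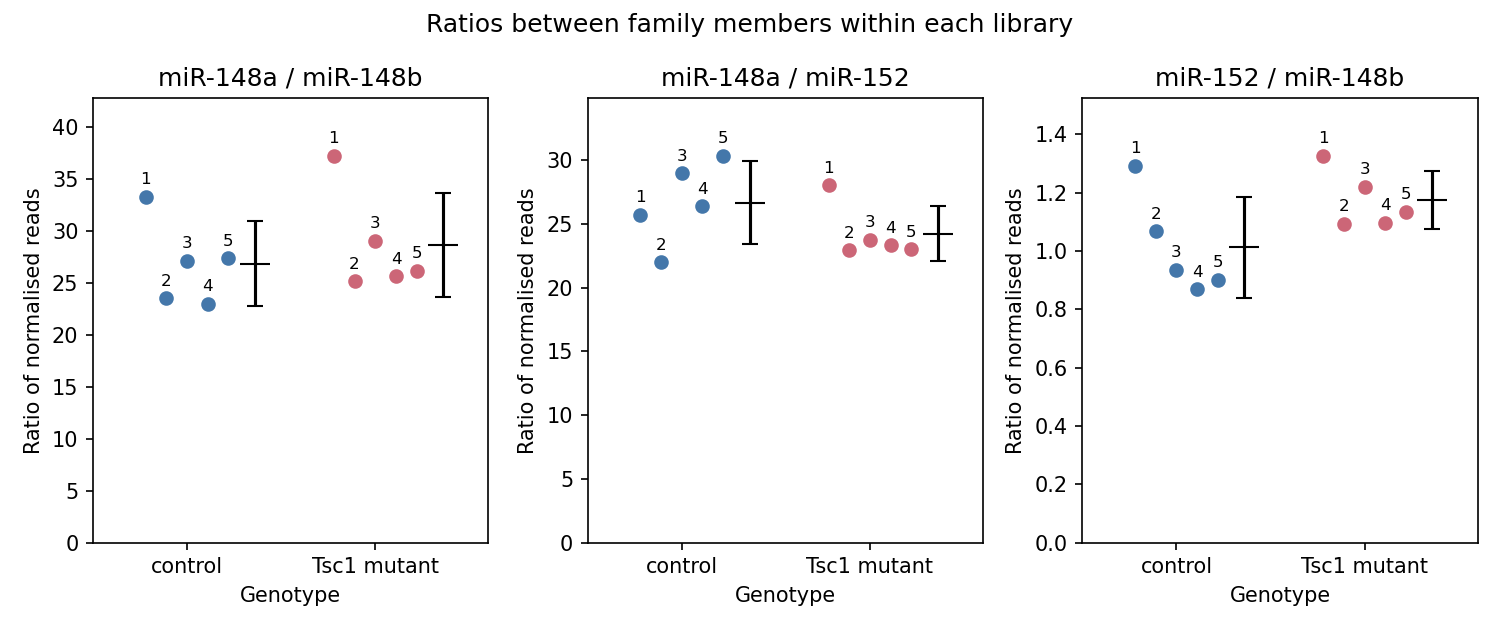
Ratio of normalised reads between pairs of family members in each library, by genotype, with replicate numbers beside the points and black bars for the mean and SD of 5 libraries. The replicates 1 have the highest ratio of miR-148a to miR-148b in both genotypes, at 33.2 and 37.2.

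Whether members differed from each other in their response to genotype was tested with every miRNA expressed relative to miR-148a. Relative to miR-148a, miR-152 was at a log2 difference of 0.13 ± 0.13 (SE), with a 95% interval of -0.14 to 0.41 and a limma adjusted p of 0.629. For miR-148b it was -0.090 ± 0.15 (SE), with an interval of -0.43 to 0.25 and a limma adjusted p of 0.791. Among all 284 other miRNAs, 12.0% passed this test. A difference in response from miR-148a was therefore not shown for either minor member. Without both replicates 1 the value for miR-152 was 0.20 (limma adjusted p = 0.305), and without control replicate 2 as well it was 0.29 (limma adjusted p = 0.102).

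The minor members were also set against each other, with every miRNA expressed relative to miR-148b, a test added after the values were seen. For miR-152 the log2 difference was then 0.22 ± 0.13 (SE), with a 95% interval of -0.070 to 0.52 and a limma adjusted p of 0.416. Of the other 284 miRNAs, 12.7% passed this test. Without both replicates 1 the value was 0.27 (limma adjusted p = 0.0745). It passed the threshold with control replicate 2 left out as well, at 0.33 (limma adjusted p = 0.0304), and with array weights, at 0.28 (limma adjusted p = 0.0372). The omission, chosen after the data were seen, takes out control replicates 1 and 2. These were the only controls with miR-152 above miR-148b, at ratios of 1.29 and 1.07. The larger difference without them therefore depends on which controls were removed.

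By mean level, miR-148a ranked 4 of 285, after miR-122, miR-21 and miR-192 and before miR-30a. It ranked 4 in each genotype. In the 10 libraries its level exceeded that of miR-30a in every one, and it was exceeded by miR-192 and by miR-21 in 9 each. miR-192, an HNF-dependent miRNA of liver and gut, had 765826 ± 122944 normalised reads in controls and 755093 ± 31849 in mutants. miR-30a had 453375 ± 76090 and 484789 ± 88445 (mean ± SD over 5 libraries). The minor members were neighbours in the order, with miR-152 at rank 33 and miR-148b at rank 35. Only miR-191 stood between them, at 23530 ± 11464 normalised reads in controls and 21089 ± 7907 in mutants (mean ± SD over 5 libraries), a spread that covers both.

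Within a genotype, the family members varied less between libraries than most miRNAs. The within-genotype SD on the log2 scale was 0.15 for miR-148a, 0.11 for miR-148b and 0.089 for miR-152, against a median of 0.44 over all miRNAs. Ordered from the least variable, these were ranks 13, 8 and 4 of 285. Among the 47 miRNAs whose mean reached 10000 normalised reads, the members ranked 9, 6 and 4. No test was made of these ranks. In the 7 libraries without both replicates 1 and control replicate 2, the SDs were 0.10, 0.033 and 0.060, against a median of 0.29. The ranks were then 25 for miR-148a, 1 for miR-148b and 7 for miR-152.

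**Figure D4:**
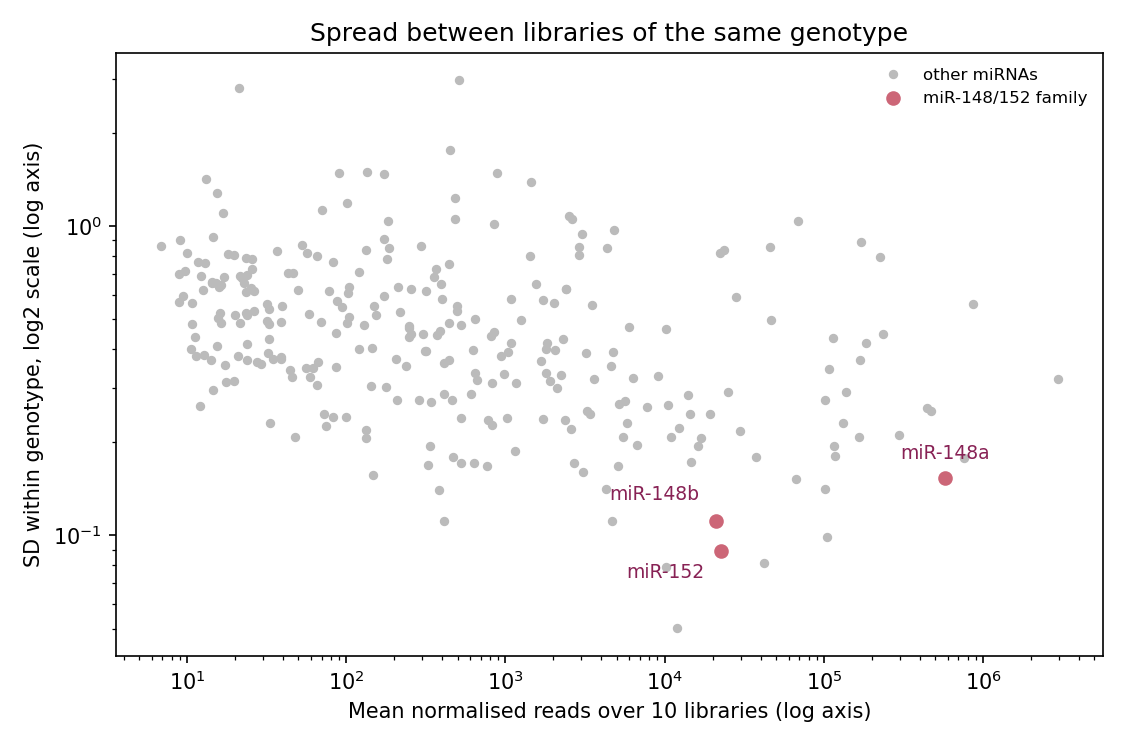
Each point is 1 of the 285 miRNAs, with its mean normalised reads against its SD within genotype on the log2 scale, both on log axes. Red points are the family members, with SDs of 0.089 to 0.15, which lie near the lower edge of the plot.

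Likeness to miR-148a was measured as the SD over the 10 libraries of the log2 ratio to miR-148a. A low value means that 2 miRNAs kept a steady ratio. It also arises where both vary little, and the genotype difference enters it, so a low value does not show that they varied together. The 5 most like it were miR-1839-5p at 0.087, miR-10a at 0.10, miR-140 at 0.11, miR-30a at 0.13 and miR-340-5p at 0.13. The median of the 284 miRNAs was 0.49. By this measure the own family was not the closest, since miR-152 ranked 9 at 0.16 and miR-148b ranked 26 at 0.22. All values share the same 10 libraries, so these are descriptions of them. The order changed in the 7 libraries without both replicates 1 and control replicate 2, where miR-140 and miR-30a came first, each at 0.083, and miR-148b ranked 8 and miR-152 ranked 35.

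Among other miRNAs known to target DNA methyltransferases, 9 names gave 11 rows of the table, some with both arms. Of these, 1 was higher in mutants and 0 were lower, beside 10.9% higher and 2.11% lower over the table, so the count is not a result about the list. The higher one was miR-29a, which is known to target DNMT3A and DNMT3B, the enzymes of new methylation. It had 92084 ± 7801 normalised reads in controls and 116048 ± 5673 in mutants (mean ± SD over 5 libraries). Its log2 difference was 0.34 ± 0.096 (SE; limma adjusted p = 0.0395). The call was lost without any 1 of 9 of the 10 libraries, with limma adjusted p-values of up to 0.116 and differences of 0.31 to 0.36, and kept without control replicate 1. It was also lost with scaling to the library total (limma adjusted p = 0.0588), with TMM scaling (0.0704), with scaling to the total without miR-122 (0.0662) and without the trend (0.117). Over the 24 limma alternatives the call was lost in 13 and kept in 11. Among those that kept it were array weights (limma adjusted p = 0.00527) and the replicate block (0.0300). The median log2 difference of the 11 rows was 0.094, beside -0.056 over all miRNAs. The most abundant over all 10 libraries was miR-101b, at 0.40 ± 0.26 (SE; limma adjusted p = 0.428).

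Of 10 miRNAs known for effects on the LDL receptor and cholesterol handling, 8 were in the table, and 0 were higher and 0 lower, beside the same 10.9% and 2.11% of all miRNAs. Their median log2 difference was -0.035. The most abundant was miR-122, at -0.21 ± 0.19 (SE; limma adjusted p = 0.608). miR-33, hosted by the gene of the sterol regulator SREBP-2, had 319 ± 192 normalised reads in controls and 316 ± 112 in mutants (mean ± SD over 5 libraries).

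Markers of the cell types of liver were set beside the family. In whole liver, fewer cells of a type and less RNA per cell cannot be told apart. Over all miRNAs 10.9% were higher and 2.11% lower, so the counts in these short lists are not results about cell types. Of the 4 hepatocyte miRNAs 1 was higher, miR-802, at 1.72 ± 0.24 on the log2 scale (SE; limma adjusted p = 0.000258). The other hepatocyte rows did not pass, with miR-122 at -0.21, miR-194 at -0.033 and miR-192 at -0.0054, and the median of the list was -0.019. Of 6 stellate and smooth muscle miRNAs 0 passed, with a median of -0.084 and sums of 168823 to 369439 normalised reads in controls and 136276 to 249924 in mutants. Both rows of the endothelial miR-126 had sums of 113035 to 160119 and 114892 to 160253. None of 8 leukocyte, 3 erythroid, 5 biliary epithelial, 3 striated muscle and 3 neural rows passed the limma threshold, with medians of -0.23, 0.11, -0.74, -1.27 and -0.43. Without control replicate 2 the biliary epithelial median was -0.15 and the striated muscle median was -0.50. In the order just given, the leading rows by level were miR-146a at -0.21, miR-486 at 0.11, miR-200b at -0.68, then miR-1a with -1.27 and miR-128 with -0.43 on the log2 scale. miR-143 led the stellate list at -0.39, and miR-126-3p was at -0.024. No listed marker in the table was at 0 in all libraries. Control replicate 2, highest in the biliary, stellate and striated muscle sums, was the lowest library for miR-148a in normalised reads. By share of reads control replicate 4 was the lowest for miR-148a, at 4.88%, against 5.60% in control replicate 2. The part of such cells in these values was not tested.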

How the data were processed

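Small RNA was sequenced in 10 libraries of mouse liver. The deposited table holds a normalised signal, in which the authors divided the reads of each miRNA by a factor for its library. DESeq is named in the submitters' processing notes with no version. Nothing on aligner, annotation, genome build or filters is given in the sources used here. Columns were matched to samples by library number, which ran consecutively within each genotype, so any effect of that order cannot be told apart from genotype. Every value was a whole multiple of 1 step per library within 0.001, and division by that step gave the reads behind depth and the binomial intervals. These reads are inferred from the values, and the depths and intervals rest on that inference.

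Values were compared as log2(value + 1) over all 285 miRNAs with limma 3.58.1 in R 4.3.3 (genotype, empirical Bayes with an intensity trend), with Benjamini-Hochberg adjustment and a threshold of 0.05. This scale understates changes of low miRNAs. A mean of at least 5 was required, and all 285 met it. The fit was tested on simulated data with noise drawn independently for each miRNA and library. Deviations shared between libraries or miRNAs were not simulated, so the simulation does not cover them. No 2 libraries were identical, and 0 of 45 pairs agreed within sampling noise.

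Members and lists were chosen with earlier results of these data known. Named were all members, miRNAs next to miR-148a by level, the 5 with the steadiest ratio to it, those sharing its seed, and in each list the called and the most abundant. Other names, among them miR-130a, miR-301a, miR-33 and neighbours of the minor members, were chosen after their values were seen. Alternatives were other pseudocounts, filters, scalings (total, TMM, median ratio, total without miR-122), no trend, a replicate block, array weights, and leaving out single libraries. Voom on whole reads, an exact permutation test of every miRNA, miR-148b as the reference and the joint omission of libraries that stood apart were chosen after seeing the data. Sequences and hairpin positions were taken by name from RefSeq (GRCm38.p6), in which all 3 members matched, and host genes from GENCODE M21. Figures were drawn with matplotlib 3.10.9.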

Additional observations from a re-analysis of the deposited data

Results flagged for a closer look

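In 1 of 14 groups of 5 values, where chance gives about 0.7, a library stood apart from the other 4. The ratio of miR-148a to miR-152 was 28.0 in Tsc1 mutant replicate 1, against 23.0 to 23.8 in the other mutants. Without this library the log2 difference of miR-152 relative to miR-148a was 0.19 (limma adjusted p = 0.505).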

How the results depend on the processing

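No member passed an adjusted p of 0.05 under any of 25 alternatives. miR-152 was higher in mutants in all 25, at 0.16 to 0.26 on the log2 scale. The alternatives are not independent of each other. The changed filters, no trend, the replicate block and the permutation test leave its log2 difference at 0.19 by construction. The permutation test could give no adjusted p below 0.0628, so that no member could pass it. The differences of miR-148a and miR-148b were so small that their sign turned in places. miR-148a was at -0.033 with array weights, at -0.0042 without Tsc1 mutant replicate 1 and at -0.037 without both replicates 1 and control replicate 2. miR-148b was at 0.011 with scaling to the library total and at 0.0041 without Tsc1 mutant replicate 1, where its difference relative to miR-148a was 0.0083. The family sum turned to -0.028 without both replicates 1 and control replicate 2. The difference of miR-152 relative to miR-148b passed only with array weights, at 0.28, and without those 3 libraries, at 0.33. Those 3 libraries include the only controls with miR-152 above miR-148b. Leaving out single libraries gave -0.0042 to 0.089 for miR-148a, -0.087 to 0.0041 for miR-148b, 0.16 to 0.23 for miR-152, and -0.17 to 0.0083 and 0.086 to 0.20 for miR-148b and miR-152 relative to miR-148a, and 0.17 to 0.32 for miR-152 relative to miR-148b.

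Same-numbered libraries correlated by -0.021 to 0.81, with 0.46 next for replicates 4, and differently numbered ones by -0.54 to 0.32. The labels do not say that the replicate numbers pair the libraries, and these correlations do not settle it. With the replicate block the log2 difference of miR-152 was 0.19 (limma adjusted p = 0.244), no member passed, and 10 miRNAs were lower. The number lower over the table, 6, was 3 with a mean of at least 100, where 19 were higher, 23 with array weights, 11 without both replicates 1 and 13 without control replicate 2 as well. It ran from 2 to 10 with single libraries left out: omitting control replicate 1 gave 10, omitting control 3 or control 5 gave 3, and omitting Tsc1 mutant replicate 4 gave 2. With an exact permutation test of every miRNA 0 were higher and 0 lower. The 252 splits allow no p below 0.00794, which 36 miRNAs reached, so that no adjusted p could be below 0.0628, and 67 had an unadjusted p below 0.05. The cause of the other shifts was not tested. A count test with edgeR was planned only if the deposited values were raw counts, and was not run because they are normalised. Voom on the inferred reads was run as an added alternative.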

Other observations

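The miRNAs most like the minor members were also listed, chosen after the values were seen. Here too a low SD can come from miRNAs that each vary little. Closest to miR-152, by the SD of the log2 ratio over 10 libraries, were miR-340-5p at 0.074, miR-532-5p at 0.11 and miR-29a at 0.12. miR-532-5p had 4178 ± 224 normalised reads in controls and 5103 ± 490 in mutants (mean ± SD over 5 libraries), a log2 difference of 0.28 ± 0.11 (SE; limma adjusted p = 0.140). miR-340-5p was at 0.22 ± 0.098 (SE; limma adjusted p = 0.205). Closest to miR-148b were miR-27b at 0.070, miR-361 at 0.097 and miR-22 at 0.11. The log2 difference of miR-27b was -0.036 ± 0.11 (SE; limma adjusted p = 0.948). Neither miR-148a nor the other minor member was among the 3 closest in either case.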
